A study of Homo sapiens with 6 samples.

Results

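RH30 is an established fusion-positive rhabdomyosarcoma cell line, a tumor line of the skeletal muscle lineage. The regions described here are stretches of open chromatin that RH30 cells kept with and without MyoD, that lie away from promoters, and that hold both an E-box and an AP-1 site. Overlapping ATAC-seq peaks of 6 libraries on chromosomes 1 to 22 and X were merged into 105441 regions, of which 47847 were called in all 6 libraries. Among these shared regions, 37231 had their highest summit over 2 kb from the 5′ end of every protein-coding gene and are called distal. Of the distal regions, 2276 held both the E-box CAGCTG and an AP-1 site, TGACTCA or TGAGTCA, within 100 bp on each side of that summit, and these are the members. Members were chosen by the peak calls and fold enrichments themselves, so being open in every library is a condition of entry and not a result.

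ATAC-seq marks open chromatin by Tn5 transposase, which inserts adapters where DNA is accessible. The 3 scramble libraries came from RH30 cells transduced with Cas9 and non-targeting guides, and the 3 MyoD-deleted libraries from RH30 cells transduced with Cas9 and guides against MyoD. All cells grew in the same serum-containing RPMI medium and were frozen in DMSO before library preparation, and the labels call the libraries biological replicates without naming clones or separate transductions. The study's results text and figure legends describe the cells of this assay in places as RH30 cells that carry an IκBα super repressor, an inhibitor of NF-κB, whereas its methods and the sample labels name RH30 alone, so whether these libraries carry the repressor was not settled. The lists of peaks hold no read totals. Each library had between 63068 and 80530 peaks, and the smallest background pileup, a measure of depth, was 3.41 in scramble replicate 1 and between 2.22 and 2.74 in the other 5 libraries. All 7 muscle and rhabdomyosarcoma markers examined, including MYOD1, MYOG and DES, had their 5′ end in a region called in 6 of 6 libraries, while the blood, liver and endothelial markers and CDH1 and KRT5 had none. EPCAM, an epithelial marker, had one in 5 libraries. The deletion was not visible as lost peaks at MYOD1 itself, where both regions nearest the gene were called in all 6 libraries. Their summit heights, relative to the median region, changed in MyoD-deleted libraries by -0.55 and -0.49 as log2 (limma, adjusted p = 0.0017 and 0.0021), and their rank changes of -6.38 and -8.24 percentiles did not pass (adjusted p = 0.612 and 0.408).

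MyoD belongs to the basic helix-loop-helix family, binds E-boxes as a dimer with an E protein, and drives the skeletal muscle program. CAGCTG is a palindrome and the E-box form that MyoD is known to prefer, and its known consensus favours a purine (A or G) before the site and a pyrimidine (C or T) after it. AP-1 is a dimer of FOS and JUN family proteins that binds TGACTCA, which reads as TGAGTCA on the opposite strand, and is known for its part in distal enhancers and growth signals. The sequences below are the members with the most extreme called changes in rank, other than those nearest DLC1 and GSDMC, which are described without their sequence, and those with the highest enrichment or with overlapping sites, since they show how the 2 sites can be arranged. Each runs 5′ to 3′ on the plus strand of hg38 from 10 bases before the closest pair of sites to 10 bases after it, with both sites in capitals, and is named by the gene whose protein-coding 5′ end was nearest.

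The first 5 fell in MyoD-deleted libraries.
ETV1, chr7:13551664-13551769: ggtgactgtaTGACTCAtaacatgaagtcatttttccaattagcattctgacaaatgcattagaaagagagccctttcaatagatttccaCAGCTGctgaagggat
PLEKHG1, chr6:150582273-150582310: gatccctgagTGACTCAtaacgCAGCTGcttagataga
TMPRSS15, chr21:19469204-19469242: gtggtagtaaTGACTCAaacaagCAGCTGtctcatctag
SYT6, chr1:114145667-114145722: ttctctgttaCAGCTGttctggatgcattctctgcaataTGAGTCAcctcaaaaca
OR6M1, chr11:123799600-123799735: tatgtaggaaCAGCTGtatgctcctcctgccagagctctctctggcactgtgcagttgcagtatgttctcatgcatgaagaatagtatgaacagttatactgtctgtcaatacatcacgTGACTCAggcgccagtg

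The next 5 rose.
QKI, chr6:163458030-163458060: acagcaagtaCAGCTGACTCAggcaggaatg
PCSK1, chr5:96384521-96384590: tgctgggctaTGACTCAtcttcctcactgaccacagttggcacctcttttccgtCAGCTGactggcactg
CLNS1A, chr11:77672463-77672610: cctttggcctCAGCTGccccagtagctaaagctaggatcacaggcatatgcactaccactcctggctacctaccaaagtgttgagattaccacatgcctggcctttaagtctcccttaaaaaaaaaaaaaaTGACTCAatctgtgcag
ABHD2, chr15:89068390-89068443: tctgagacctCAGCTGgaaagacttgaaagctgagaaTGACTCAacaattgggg
SIX2, chr2:45025047-45025149: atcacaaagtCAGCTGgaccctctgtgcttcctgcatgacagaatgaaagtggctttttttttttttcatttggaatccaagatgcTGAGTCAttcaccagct

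In the next 4, the sites share 2 bases.
NF1, chr17:31052376-31052406: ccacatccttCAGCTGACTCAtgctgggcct
RAD52, chr12:879897-879927: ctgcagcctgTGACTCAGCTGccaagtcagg
ADGRL2, chr1:81920452-81920482: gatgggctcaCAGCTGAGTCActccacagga
RASA1, chr5:87300972-87301002: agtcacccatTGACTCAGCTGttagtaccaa

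The last 4 are the most enriched members.
C3orf14, chr3:62109747-62109859: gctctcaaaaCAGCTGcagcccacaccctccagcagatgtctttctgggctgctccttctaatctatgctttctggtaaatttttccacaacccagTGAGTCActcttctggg
TPTE, chr21:6125722-6125792: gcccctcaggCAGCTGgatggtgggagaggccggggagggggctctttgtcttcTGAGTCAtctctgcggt
RSRC2, chr12:122518004-122518043: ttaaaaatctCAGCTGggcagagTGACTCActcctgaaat
USP22, chr17:21075549-21075647: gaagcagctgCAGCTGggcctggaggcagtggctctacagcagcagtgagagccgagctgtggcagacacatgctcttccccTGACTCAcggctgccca

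Members were mostly intronic or intergenic. The summit lay in an intron in 1110 members (48.8%), between genes in 1037, in a UTR in 58, in a coding exon in 45 and in a noncoding exon in 26. The median distance to a protein-coding 5′ end was 50.4 kb in members, against 25.6 kb over all shared regions. All shared regions include those at promoters, which the distal rule leaves out, so part of this gap is built in. The median was 50.6 kb in distal regions with the AP-1 site only, 43.9 kb with the E-box only and 39.7 kb with neither. Of members, 50.3% lay over 50 kb away, against 50.3%, 46.0% and 43.3% in the same order. The 201 bases around the summit had a median GC content of 50.7% in members, 52.7% in distal regions with the E-box only and 47.8% in those with the AP-1 site only. Members had 1902 nearest genes, of which 63 had 3 or more members, and KLHL29 had the most, with 6. An AP-1 site stood in 19.4% of the distal regions with an E-box and in 22.6% of those without one.

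The question of the comparison was whether openness at these regions changed when MyoD was deleted. A rank and a height were used, because the lists hold no read counts. The rank of a region is the percentile of its highest fold enrichment over local background among the 47847 shared regions of a library, from 0 for the least to 100 for the most enriched. The summit height is log2 of the fragment pileup at the summit over the genome background of the library, centred on the median region. The members were the most enriched of the 4 kinds of distal region, with a median rank over the 6 libraries of 52.5, against 44.6 with the E-box only, 45.4 with AP-1 only and 41.3 with neither.

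In scramble libraries the median rank of members was 56.1, 54.2 and 53.8 in replicates 1, 2 and 3, and in MyoD-deleted libraries it was 52.2, 52.8 and 50.9. By rank the 2 groups did not overlap, with 54.7 ± 1.24 (SD, n = 3) against 52.0 ± 0.965 (SD, n = 3). By summit height they overlapped, with medians of 0, -0.08 and -0.07 in scramble and -0.08, -0.04 and -0.11 in MyoD-deleted libraries. The members ranked above both kinds of region with a single site in each group, and their change lay between those of the 2 kinds. With the E-box only the median rank was 48.6, 50.1 and 49.2 in scramble and 40.5, 38.4 and 42.9 in MyoD-deleted libraries. With AP-1 only it was 46.2, 40.3 and 40.4 in scramble and 49.2, 52.3 and 47.3 in MyoD-deleted libraries. The median log2 of local background over genome background, by which fold enrichment divides, was 1.14 ± 0.0561 (SD, n = 3) in scramble and 1.15 ± 0.0402 (SD, n = 3) in MyoD-deleted libraries for members. In E-box only regions its mean was 1.21 in scramble and 1.05 in MyoD-deleted libraries. In AP-1 only regions it was 0.779 and 1.01, so this divisor shifted in the single-site classes. In such bulk libraries, fewer cells with an open region and less openness per cell cannot be told apart. The plot of median ranks by library shows the opposite order of the groups in these single-site classes and the small step of the members between them.

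**Figure D1:**
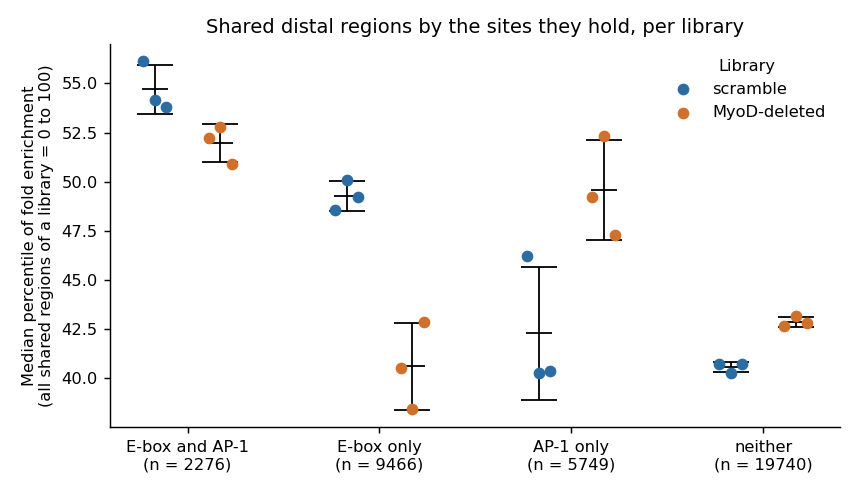
Median percentile of fold enrichment (y axis, all shared regions of a library span 0 to 100) for each kind of shared distal region, 1 point per library; bars give the mean and SD of 3 libraries per group. Members (E-box and AP-1) went from a mean of 54.7 in scramble to 52.0 in MyoD-deleted libraries, E-box only regions from 49.3 to 40.6, and AP-1 only regions from 42.3 to 49.6.

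By rank, 144 of 2276 members (6.33%) were lower in MyoD-deleted libraries and 96 (4.22%) were higher (limma, adjusted p under 0.05), beside 4.67% lower and 4.12% higher among all shared regions. By summit height, 433 members (19.0%) were lower and 287 (12.6%) higher, beside 12.8% lower and 11.4% higher among all shared regions. The share that fell was therefore above that of all shared regions by both measures, and the share that rose was close to it. Among all shared distal regions, 5.71% were lower and 5.01% higher by rank, and 15.5% lower and 13.5% higher by height. Against these distal shares, the share of members that fell was somewhat higher by both measures, and the share that rose was slightly lower. In the E-box only class 11.4% were lower and 2.04% higher by rank, and in the AP-1 only class 2.30% and 8.99%. With neither site 3.92% were lower and 5.36% higher by rank. The median rank change of members was -0.67 percentiles, with quartiles at -8.99 and 6.08, against -4.09 for E-box only, 3.79 for AP-1 only and -0.08 for all shared regions. With neither site it was 1.04, and for all shared distal regions 0.16. The median change in summit height was -0.05 for members, -0.20 for E-box only, 0.21 for AP-1 only and 0.04 for all shared regions on the log2 scale. With neither site it was 0.08, and for all shared distal regions 0.03.

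The direction of the height change depends on the centring. Without it every region shifted up in MyoD-deleted libraries by 0.19 (log2), the median member change was 0.14 rather than -0.05, and 235 members (10.3%) were lower and 523 (23%) higher, beside 8.03% lower and 24.7% higher among all shared regions. The share that fell was above that of all shared regions on this scale too, and the share that rose was slightly below it. Among all shared distal regions the uncentred shares were 9.95% lower and 25.8% higher, so the share of members that fell was close to theirs. Changes in height are given below relative to the median region. Of the 144 members lower by rank, 127 were also lower by height, and of the 96 higher by rank, 79 were also higher by height, with 0 called in opposite directions. Leaving out 1 library gave between 52 and 112 members lower by rank and between 24 and 127 higher. The lowest counts came without scramble replicate 2 (52 lower) and without MyoD-deleted replicate 2 (24 higher), and without scramble replicate 1 more members were higher (127) than lower (112).

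**Figure D2:**
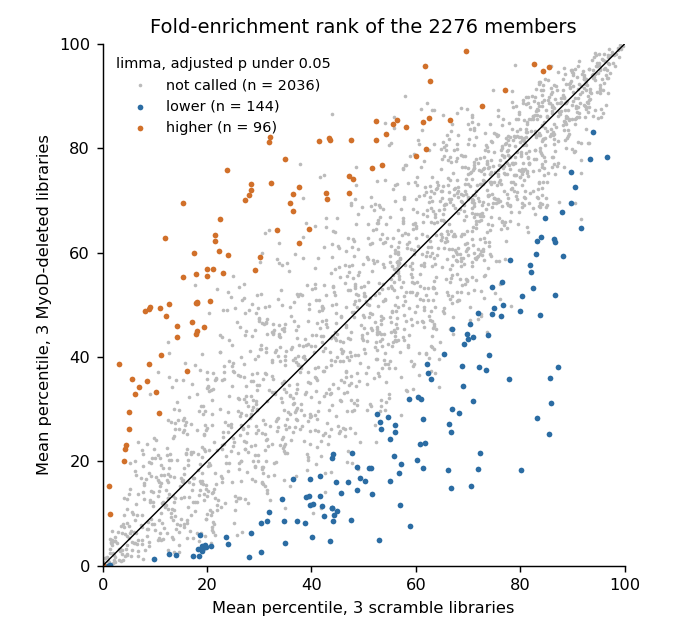
Mean percentile of fold enrichment in 3 MyoD-deleted libraries (y axis) against 3 scramble libraries (x axis), 1 point per member; the line marks equal rank. Blue points are the 144 members lower by rank and orange points the 96 higher (limma, adjusted p under 0.05); the member nearest ETV1 lies at 80.1 and 18.3 and the one in QKI at 15.4 and 69.4.

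The members that fell most lay near genes of varied function. Only members whose groups did not overlap in rank could be named among the largest falls and rises. The member 440 kb from ETV1, an ETS family transcription factor, spans chr7:13551086-13552298 between genes. Its ranks were 76.7, 86.1 and 77.4 in scramble and 12.5, 6.49 and 36.1 in MyoD-deleted libraries, a change of -61.7 percentiles (limma, adjusted p = 0.00554). Every MyoD-deleted library stood below every scramble library, as naming required, and the height change was -1.98 ± 0.225 (SE) on the log2 scale. The member 17.6 kb from PLEKHG1 ranked at 76.8, 88.2 and 91.6 in scramble and at 26.5, 29.7 and 19.8 in MyoD-deleted libraries, and its sites stood 5 bases apart. The change was -60.2 percentiles (limma, adjusted p = 0.00291).

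In an intron of SYT6, a synaptotagmin gene, the member at chr1:114145532-114146435 ranked at 87.1, 90.8 and 79.6 in scramble and at 33.4, 26.8 and 33.2 in MyoD-deleted libraries. Its pileup at the summit was 143, 108 and 109 fragments in scramble and 28, 23 and 26 in MyoD-deleted libraries. This was a height change of -2.15 ± 0.174 (SE) on the log2 scale, larger than the spread within either group. The other 3 of the 6 largest falls stood 983 kb from TMPRSS15 (enteropeptidase), 412 kb from DLC1 and 6.71 kb from OR6M1 (an olfactory receptor), with changes of -55.2, -54.8 and -53.4 percentiles. In all 6 the groups did not overlap, which was a condition for naming them, and 5 of the 6, all but DLC1, had an E-box with the favoured base on both sides. This held for 35.9% of all members and 52.8% of the 144 lower by rank. The ETV1 and OR6M1 members held 2 and 3 E-boxes, of which the best was counted.

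The members that rose most included one with overlapping sites. In an intron of QKI, an RNA-binding protein, the member at chr6:163457556-163458610 ranked at 18.3, 18.3 and 9.52 in scramble and at 78.2, 65.9 and 64.3 in MyoD-deleted libraries. The change was 54.0 percentiles (limma, adjusted p = 0.00337), and the height change was 1.32 ± 0.214 (SE) on the log2 scale. The member 49.5 kb from PCSK1, a prohormone convertase, ranked at 22.7, 21.4 and 27.2 in scramble and at 72.4, 75.0 and 80.4 in MyoD-deleted libraries, a change of 52.2 percentiles. For both members all 3 MyoD-deleted libraries stood above all 3 scramble libraries, as naming required.

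The member 441 kb from GSDMC, a gasdermin gene, rose by 51.0 percentiles. It ranked at 22.7, 9.96 and 2.88 in scramble and at 68.9, 59.1 and 60.4 in MyoD-deleted libraries. In this member and in the remaining 3 of the 6 largest rises, scramble replicate 1 stood above the other scramble libraries. That library also had the largest background pileup, and the part of depth in this was not tested. The member nearest CLNS1A, which lies in an intron of RSF1, ranked at 61.9 in scramble replicate 1 against 12.5 and 21.8 in the others, and at 75.6, 88.5 and 82.5 in MyoD-deleted libraries. The member 19.0 kb from ABHD2, a hydrolase gene, ranked at 66.7, 15.3 and 13.6 in scramble and at 86.5, 75.6 and 81.8 in MyoD-deleted libraries, a change of 49.4 percentiles (limma, adjusted p = 0.0306). Without scramble replicate 1 it was 66.9 (adjusted p = 0.0017), and without any other single library the ABHD2 member did not pass, with adjusted p between 0.0683 and 0.105. The member 15.6 kb from SIX2, a homeobox transcription factor, rose by 44.7 percentiles (limma, adjusted p = 0.0261), but did not pass without scramble replicate 2 or 3 or MyoD-deleted replicate 2 or 3 (adjusted p between 0.0547 and 0.0948). The CLNS1A member did not pass without scramble replicate 2 or 3 or MyoD-deleted replicate 2 (adjusted p between 0.0658 and 0.0838). The E-boxes of PCSK1, GSDMC, ABHD2 and SIX2 had the favoured base on neither side, and those of QKI and CLNS1A on 1 side. It stood on neither side in 16.0% of all members and in 35.4% of the 96 higher by rank.

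**Figure D3:**
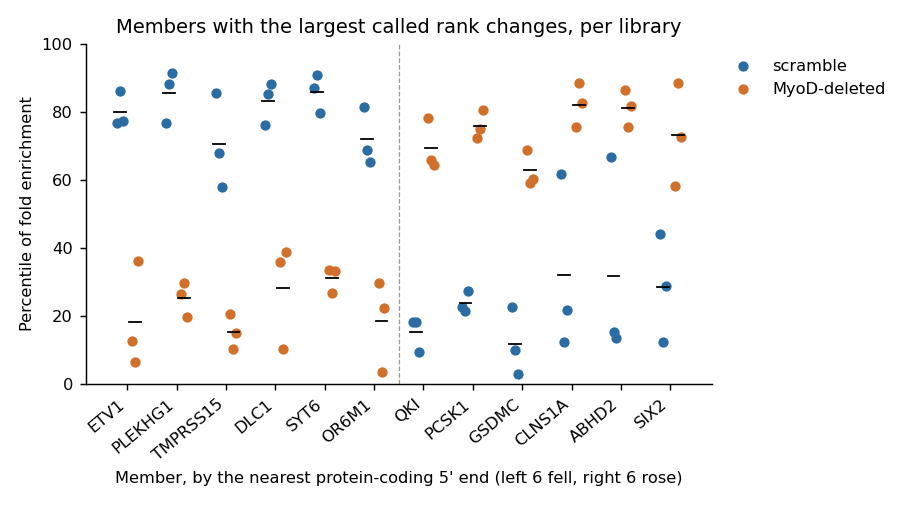
Percentile of fold enrichment (y axis) in each library for the 6 members with the largest called falls (left) and the 6 with the largest called rises (right), named by the nearest protein-coding 5′ end; points are libraries and short lines the mean of 3. Groups that do not overlap were a condition for naming all 12, and scramble replicate 1 stands apart for CLNS1A (61.9) and ABHD2 (66.7).

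The most enriched members held their place. The member nearest C3orf14, in an intron of the receptor phosphatase gene PTPRG, ranked between 99.6 and 99.8 in all 6 libraries, and its height change was -0.02 ± 0.104 (SE) on the log2 scale. The members nearest TPTE, RSRC2 and USP22 ranked at 98.1 or above in every library, with rank changes of 0.64, -0.26 and 0.38 percentiles (limma, adjusted p = 0.268, 0.701 and 0.593). The TPTE member lay 4396 kb from that gene. Height changes of these 3 members were between -0.08 and 0.09 on the log2 scale, none of which passed. A rank so close to 100 leaves a rise little room to show.

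The spacing of the 2 sites varied widely. Spacing is the number of bases between the nearest edges of the closest E-box and AP-1 site. Its median was 37 bases, with quartiles at 13 and 72 and a maximum of 185. The most frequent single arrangement was an overlap, in which the sites share the 2 bases CA or TG, in 145 members (6.37%). Of these, 81 read TGACTCAGCTG and 64 read TGAGTCAGCTG on one of the strands. Next came a gap of 7 bases, in 53 members, while the other single gaps from 0 to 29 bases each had between 15 and 40.

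The same arrangements were common in the genome. On chromosomes 1 to 22 and X of hg38, 4109 pairs of the 2 sites overlapped, against a median of 391.5 pairs at a single gap from 0 to 29 bases. The gap of 7 bases was also the most frequent of these in the genome, with 755 pairs, of which 567 had the E-box before the AP-1 site read as TGACTCA. Per 1000 genome pairs, 36.0 overlapping pairs lay in a member, against 81.7 pairs at gaps of 0 to 9 bases, 72.2 at 10 to 29 and 49.1 at 30 to 59. The count of overlaps in members was therefore large in number and, per genome pair, smaller than that of neighbouring spacings. A gap of 51 bases held 2228 genome pairs and 10.8 per 1000 of them lay in members. Wider pairs fit less often in a window of 201 bases, so the fall of this share with spacing carries the window's own limit.

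**Figure D4:**
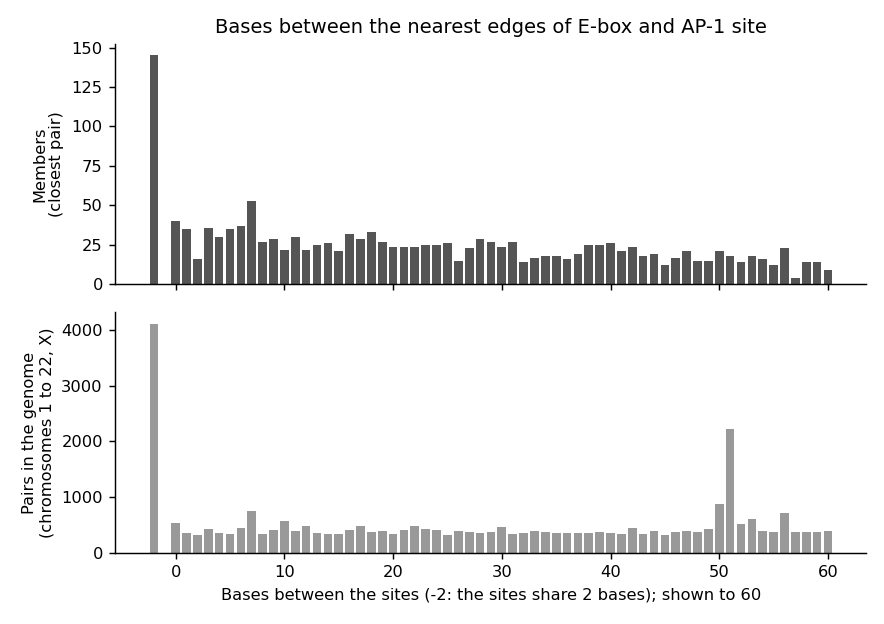
Members by the bases between their closest E-box and AP-1 site (upper) and all pairs of the 2 sites in the genome at the same spacing (lower), for spacings from -2 (the sites share 2 bases) to 60. The overlap is the tallest bar in both panels, with 145 members and 4109 genome pairs, and the genome bar at 51 bases (2228 pairs) has no counterpart among the members (18).

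The median height change of members with overlapping sites had the opposite sign to that of wider pairs. Their median rank was 53.4, 50.5 and 49.2 in scramble and 57.8, 57.5 and 51.3 in MyoD-deleted libraries, and the groups overlapped. The median height change was 0.14 on the log2 scale (quartiles -0.15 and 0.48), and 35 of 145 (24.1%) were higher and 13 (8.97%) lower by height. At gaps of 0 to 9 bases the median was -0.07, and 29 of 338 (8.58%) were higher and 72 (21.3%) lower. Medians at wider gaps were between -0.09 and -0.05. The difference between overlapping and adjacent sites was not tested, because the members were chosen with results known. Without 1 library at a time the median stayed between 0.12 and 0.16 for overlapping sites and between -0.10 and -0.08 for gaps of 0 to 9 bases. The share of overlapping members that were higher ranged from 12.4% to 27.6%. Without the centring the medians were 0.33 and 0.12, both positive.

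Among overlapping members, the 4 with the highest ranks were nearest NF1, RAD52, ADGRL2 and RASA1. The member 42.5 kb from NF1, which encodes the Ras GTPase activating protein neurofibromin, ranked at 98.3, 97.4 and 96.6 in scramble and at 98.0, 97.7 and 98.0 in MyoD-deleted libraries, with a height change of 0.30 ± 0.095 (SE) on the log2 scale (limma, adjusted p = 0.0265). In a coding exon of WNK1, a kinase gene, the member nearest RAD52 changed by -0.54 ± 0.112 (SE) in height (limma, adjusted p = 0.00176). In an intron of ADGRL2, an adhesion receptor gene, the change was -0.39 ± 0.121 (SE, adjusted p = 0.0248). The member in an intron of RASA1, another Ras GTPase activating protein, changed by -0.36 ± 0.167 (SE) and did not pass (limma, adjusted p = 0.129). None of the 4 passed by rank. Without centring, the height changes of the RAD52 member (-0.35, adjusted p = 0.0522) and the ADGRL2 member (-0.20, adjusted p = 0.31) did not pass.

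The medians were close for both orders of the sites. The E-box came before the AP-1 site, read as TGACTCA, in 1169 members and after it in 1107, with median height changes of -0.04 and -0.05 and median rank changes of -0.42 and -0.90. The E-box was nearer to the highest summit in 1137 members and AP-1 in 1139. The share of a library's own summits that were nearer the E-box was 51.3%, 50.9% and 51.3% in scramble and 49.8%, 49.5% and 51.0% in MyoD-deleted libraries, with overlapping groups. Of the highest summits, 40.9% came from MyoD-deleted replicate 2 and between 6.41% and 23.2% from each of the other libraries.

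The bases beside the E-box went with the direction of change. This split was examined after the results were seen. The E-box had the favoured neighbour on neither side in 364 members, on 1 side in 1071 and on both sides in 818, and 23 had their E-box at the window's edge. Where a member held several E-boxes, the best one was counted. With 2 favoured neighbours the median rank was 58.3, 58.1 and 56.6 in scramble and 50.6, 49.5 and 49.9 in MyoD-deleted libraries, and the groups did not overlap. With none it was 51.8, 46.3 and 43.9 in scramble and 52.1, 57.1 and 53.5 in MyoD-deleted libraries, the opposite order. With 1 it was between 52.9 and 55.4 in scramble and between 51.0 and 54.9 in MyoD-deleted libraries, and the groups overlapped.

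By summit height the median change was 0.18 with 0 favoured neighbours, -0.01 with 1 and -0.18 with 2 on the log2 scale. Members with several E-boxes have more chances of a favoured neighbour. Among members with 1 E-box the medians were 0.18, 0.01 and -0.13, and 23.1% of those with 2 favoured neighbours were lower. Of all members with 0, 88 (24.2%) were higher and 31 (8.52%) lower by height, and of those with 2, 56 (6.85%) were higher and 214 (26.2%) lower. By rank, 9.34% were higher and 2.75% lower with 0, and 1.71% were higher and 9.29% lower with 2. Without the centring the medians were 0.37, 0.18 and 0.01, in the same order but none negative, and with 2 favoured neighbours 13.9% were higher and 14.1% lower, against 39.8% and 4.12% with 0. Leaving out 1 library at a time kept the medians between 0.14 and 0.20 with 0, between -0.02 and 0.00 with 1, and between -0.19 and -0.17 with 2. The shares moved more. With 2 favoured neighbours between 3.55% and 8.56% were higher and between 17.5% and 26.3% lower, and with 0 between 16.5% and 26.6% were higher and between 4.95% and 9.07% lower. The share higher with 2 was lowest without MyoD-deleted replicate 2 (3.55%), and the share lower with 0 without scramble replicate 2 (4.95%).

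Single neighbour pairs, in members with 1 E-box, showed the same order in median height change but not fully in rank. Counted on both strands, TCAGCTGA, which has the favoured base on neither side, was the E-box of 74 members, of which 36.5% were higher and 6.76% lower by height, with a median change of 0.29 on the log2 scale. CCAGCTGA and CCAGCTGG, also with 0 favoured neighbours, had medians of 0.17 and 0.13. ACAGCTGC stood in 298 members, of which 6.04% were higher and 22.8% lower (median -0.16), and GCAGCTGC in 180, of which 8.89% were higher and 22.8% lower (median -0.14). ACAGCTGT, also with 2 favoured neighbours, stood in 133, of which 11.3% were higher and 24.1% lower (median -0.09). Its median rank change of -0.37 percentiles was a smaller fall than the -2.34 of ACAGCTGG, which has 1 favoured neighbour. Without centring, 47.3% of the TCAGCTGA members were higher and 5.41% lower (median 0.48), against 11.7% and 12.8% for ACAGCTGC (median 0.03) and 17.2% and 11.7% for GCAGCTGC (median 0.05). The same centred order was present in the distal regions with the E-box only, at 0.05, -0.12 and -0.32 with 0, 1 and 2 favoured neighbours. The equivalent split of bases beside the AP-1 site gave -0.06, -0.05 and -0.05 in members.

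Overlap and neighbours are linked by the sequence, since an E-box that begins in TGACTCA is preceded by a T, which is not favoured. Only 16 overlapping members had 2 favoured neighbours, all of them with a further E-box in the window. Among members with 0 favoured neighbours, 27.1% of 59 with overlapping sites and 23.6% of 305 others were higher by height, with medians of 0.18 in both. Among those with 1, 27.1% of 70 overlapping and 12.4% of 1001 others were higher, with medians of 0.17 and -0.03.

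**Figure D5:**
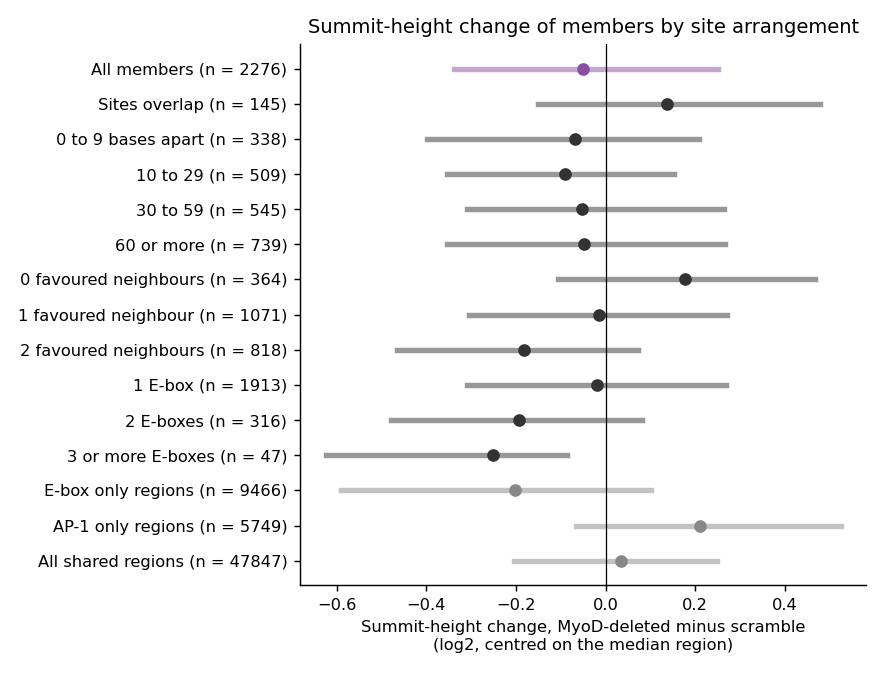
Change in summit height (x axis, log2, MyoD-deleted minus scramble, centred on the median region) by arrangement of the sites; points are medians over regions and bars run from the 25th to the 75th percentile. Members with overlapping sites (0.14) or 0 favoured neighbours (0.18) lie right of 0 and those with 2 favoured neighbours (-0.18) or 3 or more E-boxes (-0.25) left of it; without centring all values stand 0.19 further right.

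The median height change was lower with more E-boxes. Members with 1 CAGCTG in the window numbered 1913, with 2 they numbered 316 and with 3 or more 47, and their median height changes were -0.02, -0.19 and -0.25 on the log2 scale (0.17, 0.00 and -0.06 without centring). Of these, 17%, 28.8% and 36.2% were lower by height. In the E-box only regions the medians were -0.14, -0.40 and -0.59. With 2 E-boxes the members' median height was 0.27, 0.27 and 0.29 in scramble and -0.03, 0.01 and 0.03 in MyoD-deleted libraries. With 3 or more it was 0.55, 0.46 and 0.35 in scramble and 0.27, 0.17 and 0.36 in MyoD-deleted libraries, and the groups overlapped. With 1 the groups overlapped by height but not by rank. By rank they overlapped with 3 or more, and narrowly with 2 (56.61 in scramble replicate 3 and 56.64 in MyoD-deleted replicate 2). Members with 2 or more AP-1 sites numbered 166, with a median rank of 62.6 over the 6 libraries against 51.5 for 1 site, and median height changes of 0.05 and -0.05.

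A second kind of E-box, CACCTG on either strand, stood in 317 members (13.9%, against 15.3% of all shared regions). Of these, 34.4% were lower and 6.31% higher by height, with a median change of -0.26 on the log2 scale, against 16.5% lower and 13.6% higher in the other 1959 (median -0.03). By rank, 13.6% were lower with CACCTG and 5.16% without it. The central-TA form CATATG stood in 100 members, of which 28% were lower and 13% higher, and CACGTG in 79, with 22.8% and 20.3%. Without centring, 21.1% of the CACCTG members were lower and 11% higher, while the balance turned for CATATG (18% lower, 20% higher) and CACGTG (11.4% and 27.8%). Other letters were searched in the same windows. GGAATG, the core of TEAD sites, stood in 18.2% of members and 16.1% of all shared regions, CCGGAA of ETS sites in 3.12% and 8.55%, and GGGCGG of SP and KLF sites in 7.60% and 24.5%. All shared regions include those at promoters. In distal regions with the E-box only, AP-1 only and neither, GGAATG stood in 18.2%, 19.7% and 18.6%. In the same order CCGGAA stood in 3.94%, 3.25% and 5.64%, and GGGCGG in 12.7%, 7.48% and 16.5%. Members with GGAATG had a median height change of 0.00 and those without it -0.06. A match gives the letters in the window, on both strands, and not a bound factor.

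Members near muscle and signalling genes were counted in lists of genes. Among 48 genes of muscle structure and contraction, 9 had 11 members, of which 2 were lower and 0 higher by rank and 4 lower and 1 higher by height. Among all shared regions the shares were 4.67% lower by rank, and 12.8% lower and 11.4% higher by height. Without centring the muscle list had 3 lower and 3 higher. Those lower by rank, named after their values were seen, were the members nearest DMD and PDLIM3. In an intron of DMD, the dystrophin gene, the member at chrX:33204527-33205694 ranked at 73.6, 84.9 and 87.2 in scramble and at 55.9, 62.3 and 54.6 in MyoD-deleted libraries, a change of -24.3 percentiles (limma, adjusted p = 0.0249). In a coding exon of PDLIM3, which encodes a Z-disc protein, the member ranked at 64.0, 58.2 and 63.2 in scramble and at 45.3, 16.8 and 8.66 in MyoD-deleted libraries (adjusted p = 0.0356). The DMD member did not pass without any 1 library other than scramble replicate 1, with adjusted p between 0.0586 and 0.0897, nor the PDLIM3 member without any 1 other than MyoD-deleted replicate 1, between 0.0649 and 0.115. Both had 2 E-boxes. The member in an intron of TNNI1, the slow skeletal troponin I gene, stayed below the 2nd percentile of rank in every library, while its pileup was 205, 154 and 183 fragments in scramble and 80, 69 and 80 in MyoD-deleted libraries, a height change of -1.17 ± 0.131 (SE). For TNNI1, rank and height thus gave different calls. The members of the list with the highest ranks, nearest MEF2A, TPM1, MYBPC1 and SGCD, changed by 3.46, 0.11, -0.50 and 12.7 percentiles, and none passed.

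Among 23 E-box binding factors and their inhibitors, 7 had 11 members. By height 3 were lower and 0 higher (1 and 1 without centring), beside 12.8% lower and 11.4% higher among all shared regions. By rank 1 was higher and 0 lower, beside 4.12% higher and 4.67% lower among all shared regions. The one that was higher by rank, also named after its value was seen, lay 449 kb from ID2, an inhibitor of MyoD and E protein dimers. It ranked at 25.4, 16.5 and 18.3 in scramble and at 60.0, 59.1 and 51.7 in MyoD-deleted libraries, a change of 36.9 percentiles (limma, adjusted p = 0.00917), but its height change of 0.32 ± 0.194 (SE) did not pass (adjusted p = 0.267). The member nearest MYOD1, at chr11:17699116-17699997 and 19.9 kb from its 5′ end, ranked at 24.2, 26.3 and 21.3 in scramble and at 28.7, 24.7 and 23.4 in MyoD-deleted libraries. Its pileup was 306, 190 and 215 fragments in scramble and 152, 147 and 175 in MyoD-deleted libraries, with a height change of -0.49 ± 0.111 (SE, limma, adjusted p = 0.00323). Without centring this change was -0.30 and did not pass (adjusted p = 0.0821). The member nearest HES1, a Notch effector, changed by -0.58 in height (limma, adjusted p = 0.00264) and by -20.8 percentiles in rank (adjusted p = 0.0728). The 2 members nearest MYCN with the highest ranks changed by -2.54 and 3.21 percentiles, and a second member nearest ID2 by -5.28.

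The other lists had no calls by rank. Of 12 AP-1 subunit genes, 2 had 1 member each. The member nearest ATF3 was lower by height, with a change of -0.86 (limma, adjusted p = 6.97e-05), and that nearest JUN changed by -0.04 (adjusted p = 0.859), and neither passed by rank. Of 18 TEAD and YAP factors and targets, 6 had 1 member each, with 0 called by rank. By height 1 was lower and 2 were higher, beside 12.8% lower and 11.4% higher among all shared regions. The member in an intron of TEAD4 was the lower one, by -0.66 (limma, adjusted p = 0.000385), and that nearest AMOTL2, which binds YAP, was higher by 0.42 (adjusted p = 0.0427). Members nearest AMOTL1 and VGLL3 changed by -0.05 and 0.01 in height. Of 31 matrix and adhesion genes, 11 had 13 members, with 0 called by rank and 4 lower and 0 higher by height, beside 12.8% lower and 11.4% higher among all shared regions, and with 1 lower and 1 higher without centring. The member nearest TNC, a matrix glycoprotein, changed by -0.41 (limma, adjusted p = 0.0487; -0.21 and adjusted p = 0.313 without centring), while those nearest THBS1, COL6A1 and COL5A1 did not pass. Of 18 genes tied to the PAX3-FOXO1 fusion, 8 had 14 members, with 0 called by rank and 3 lower and 0 higher by height (2 and 0 without centring). These few calls stand beside 12.8% lower and 11.4% higher by height among all shared regions (8.03% and 24.7% without centring). Members nearest FOXO1, GREM1 and MET changed by 3.45, -12.1 and -11.6 percentiles and did not pass.

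The pair was also counted in distal regions called in only one group. Both sites stood in 78 of 1831 regions (4.26%) called in 3 scramble and 0 MyoD-deleted libraries, in 152 of 4665 (3.26%) called in 0 scramble and 3 MyoD-deleted libraries, and in 2276 of 37231 (6.11%) of those called in all 6. Regions whose peak was lost or gained altogether cannot be members, so the changes above are those of regions that stayed open. At the limits of the rule, the members nearest the 2 kb distance lay 2014 bp from TMEM53 and 2097 bp from HSD17B3, with rank changes of -0.20 and 38.0 percentiles. Regions just inside that distance, 1994 bp from ATF3 and 1990 bp from ENSG00000268279, changed by -10.5 and -8.08. Members whose farther site ended 100 bp from the summit, nearest ITGB3BP and WARS2, changed by -0.32 and -16.1 percentiles, and regions with a site ending at 101 bp, nearest ARHGEF16 and SLC2A1, by -29.7 and 8.32.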

How the data were processed

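ATAC-seq libraries were grouped by their labels into 3 scramble and 3 MyoD-deleted. Per the methods, the authors mapped paired-end reads to hg38 with Rsubread, identified proper pairs with GenomicAlignments and called peaks with MACS2. One list of peaks was deposited per library. The submitters' processing notes also name bcl2fastq 2.20 and FastQC. The deposited values are a fold enrichment ratio at each summit over local background, and the −log10 p-value and −log10 q-value of that summit as the peak caller wrote them. The deposited score of a peak was not used. No read counts were used, so the study's count test was replaced.

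Overlapping peaks (436266 in all) were merged, and 5′ ends of 19970 protein-coding genes came from GENCODE. Whole-number pileups were recovered for 100% of peaks by solving the caller's Poisson formula for fold enrichment and −log10 p together. The inverse-normal rank, and log2 summit height centred on the median region, were fitted with limma 3.58.1 (lmFit, eBayes with trend, no block) over 47847 regions with Benjamini-Hochberg adjustment, two-sided, and called at an adjusted p under 0.05. Positions are counted from 1. Steps were tested on simulated data. Nothing in the labels says that libraries came from separate transductions, so p-values measure the spread between these libraries, and without read totals the counting error is unknown. Members, gene lists and tests were chosen with earlier results of these data known. Named were the 6 largest called falls and the 6 largest called rises in rank with groups apart, the 4 members of highest rank, the 4 overlapping ones of highest rank, up to 4 per gene list by rank, and 2 on each side of both limits; DMD, PDLIM3, ID2, MYOD1 and TNNI1 were added after their values were seen. Fits ran in R 4.3.3. Python 3.11.15 was used for the rest, with pysam 0.24.0 for sequence, pandas 2.3.3 and numpy 2.4.6 for tables, matplotlib 3.10.9 for plots and scipy 1.17.1 for ranks.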

Additional observations from a re-analysis of the deposited data

How the results depend on the processing

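The median rank change of members stayed negative under every alternative tried, between -0.50 and -1.07 percentiles. Centring does not alter the ranks of heights, so height with and without it gave the same -1.06, and the uncentred setting is no separate check. On its own log2 scale the median member change without centring was 0.14. The median rank change moved by less than the spread of the members' median rank between replicates (SD 1.11 percentiles). The main change of -0.67 is itself smaller than that spread, so staying within it is a weak check. The number of members stayed between 2127 and 2332 with equal numbers of peaks, a −log10 q of at least 5, 5′ ends of transcripts, a 5 kb distance or the median summit, and was 712 with a 50 bp window, which held 40 members lower and 22 higher by rank. Ranks of −log10 p gave 338 lower and 209 higher, centred summit height 433 and 287, and height that was not centred 235 and 523. Peaks within 200 bp of the highest summit, an alternative chosen after seeing the data, gave 134 and 78. Without 1 replicate at a time, counts ran from 52 to 112 lower and from 24 to 127 higher by rank, and from 297 to 436 lower and from 169 to 346 higher by height. Same-numbered libraries did not deviate together (correlations of -0.05, -0.11 and 0.05), so the numbers do not pair the samples. With the replicate block, 98 members were lower and 63 higher by rank, and 392 and 263 by height, and of the named members called by rank the one nearest SIX2 did not pass (adjusted p = 0.0579). All 15 named members called by rank kept their direction under each setting tried on them, and 9 passed under every one. Depth limits regions of low pileup most, and it is unknown from the lists.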
